A study of Mus musculus with 9 samples.

Results

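The genes described here are 10 that make melanin or build the melanosome, the organelle that holds it. They are *Tyr*, *Tyrp1*, *Dct*, *Pmel*, *Mlana*, *Oca2*, *Slc45a2*, *Slc24a5*, *Gpr143* and *Rab38*, chosen by name from 37725 genes measured. Single-cell RNA-sequencing of retinas from 9 mice gave 31089 cells, and each count is of unique molecular identifiers (UMIs), tags that mark 1 captured RNA molecule each. All 9 mice carried the same alleles, RPE65-ERT2-Cre.miR-211fl.miR-204fl, in which a tamoxifen-activated Cre made in cells of the retinal pigment epithelium (RPE) can remove the floxed genes of miR-204 and miR-211. The control group was 4 mice (S01 to S04) that received corn oil, and the dKO group was 5 mice (S05 to S09) that received tamoxifen at 75 mg/kg in corn oil, injected on consecutive days from postnatal day 28, and the labels give the time as 6 months. The driver acts in RPE, so the design leaves the floxed alleles of other cell types in place. By the labels, no control mouse here was given tamoxifen, so in these samples its effect and that of the deletion cannot be told apart. The study's text describes its controls differently, as mice without Cre that received tamoxifen, and the groups here follow the labels. Both retinas of a mouse were pooled, and the front of the eye with the iris was removed before the retina was peeled from the eye cup. Depth ran from 15079143 to 66528160 UMIs per mouse, with a median of 7709 UMIs per cell.

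Melanin is made from tyrosine in melanosomes. TYR, tyrosinase, catalyses the first and rate-limiting step, and TYRP1 and DCT, dopachrome tautomerase, act further down the path to eumelanin. PMEL forms the fibrils on which the pigment is laid down, MLANA acts with PMEL in the maturing organelle, transporters and channels such as OCA2, SLC45A2 and SLC24A5 set its ions and acidity, and RAB38 is a small GTPase that directs enzymes to it. In the eye, pigment is made by the RPE, by the pigmented epithelia of the ciliary body and iris, which arise from the same neuroepithelium, and by melanocytes of the choroid and iris stroma, which come from the neural crest. RPE makes most of its melanosomes before and around birth.

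The mature 5p sequences of the deleted microRNAs share 1 seed, the stretch of bases 2 to 8 that pairs with targets. The seeds of their other mature sequences were not examined. The mature 5p sequences, from the RefSeq entries on GRCm38.p6, are shown because they are part of what the dKO mice can lose, with the seed in capitals.
mmu-miR-204-5p: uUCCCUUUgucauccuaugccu
mmu-miR-211-5p: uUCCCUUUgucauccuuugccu
Counted from the 5′ end, miR-211-5p differs from miR-204-5p at 1 of 22 bases, A17U. A match to the seed, AAAGGGA, was found in the annotated 3′-UTR of 1 of the 10 genes, *Slc24a5*, and in none of the UTRs of the others. Over all 21522 genes with an annotated 3′-UTR, 20.8% hold the match, with a median longest UTR of 1410 bases against 706 bases for the 10. This site lies at chr2:124924356-124924362 on the plus strand of GRCm39 and is printed with its flanks, the match in capitals.
Slc24a5 site: caattcatcaaAAAGGGAccaagcatagt
The microRNA genes themselves were not among the features counted, so their loss was not checked in these counts. The genes that host them gave log2 fold changes in RPE cells of -0.20 for *Trpm3* and 0.22 for *Trpm1* between dKO and control mice (edgeR, adjusted p = 0.9997 for each).

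The M-box, TCATGTG or CACATGA on the other strand, is the letter pattern recognised by MITF, the factor that drives pigment genes. Promoter windows from 250 bases before to 50 after the gene start were listed by RefSeq (GRCm38.p6) for 5 of the 10 genes (*Tyr*, *Tyrp1*, *Dct*, *Slc24a5* and *Oca2*). The letters occurred in 4 of these 5, and in 1239 of 32851 promoters listed (3.772%). The matches are shown since these 4 genes are among those that were high in RPE and in melanocyte-marked cells, with the M-box letters in capitals on the strand of the gene.
Tyr: gaaaaagttagTCATGTGctttgcagaag
Tyrp1: tggggagggagTCATGTGctgcctagtag
Dct, nearer match: tgcacttagggTCATGTGctaacaaagag
Dct, farther match: cttggctgggaCACATGAgcccaataaag
Slc24a5: aggagactgctCACATGAttcagcataag
On GRCm39 these letters lie at chr7:87142736-87142742 for *Tyr* (minus strand), chr4:80752403-80752409 for *Tyrp1* (plus), chr14:118289803-118289809 and chr14:118289884-118289890 for *Dct* (minus) and chr2:124910034-124910040 for *Slc24a5* (plus). The windows count from the RefSeq start, from which the matches of *Tyrp1* and *Slc24a5* lie at -47 and -13. By the GENCODE gene positions given below, which start elsewhere, both of these matches lie inside the gene. A match to letters is a description of the sequence and was not tested for binding. The window of *Oca2* holds neither form.

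RPE cells were taken by 7 marker genes, none of them among the 10, with at least 3 markers detected and at least 6 UMIs over them. This gate held 474 cells (median 20191 UMIs), of which 439 had at least 1 UMI of *Rpe65*, the retinoid isomerase of RPE, and 15 had *Best1*, a chloride channel of RPE, at the low end of the list. The gate also held cells with little of that marker. Of its 314 cells with at least 10000 UMIs, 75 had *Rpe65* under 100 CPM, against 3560 CPM over the whole gate, and 63 of these had 0 or 1 *Rpe65* UMI. S06 gave 33 of the 75. Of the gated cells, 377 fell in the cluster with raised RPE markers when cells were clustered without the 10 genes. The mice gave 71, 70, 66 and 1 gated cells in S01 to S04, and 8, 124, 20, 64 and 50 in S05 to S09, so the comparison of RPE rests on the 3 control mice S01, S02 and S03 and the 4 dKO mice S06 to S09 with at least 10 cells. S07 stands apart in several ways. It had 183449 RPE UMIs against at least 1056772 in each of the other 6 compared mice, 9 of its 20 RPE cells shared their later barcodes and sublibrary with an at least 5 times deeper RPE cell, and 7 of the 20 had *Xist* and no Y-linked UMI, although S07 as a whole had 404 Y-linked UMIs in every 1000000 UMIs (CPM) and its *Xist* stood at 46.5 CPM. S06 and S07 carry 1 animal number in the labels, yet S06 had 4.43 CPM of Y-linked genes and 1380 CPM of *Xist*. Y-linked genes stood at 424, 419 and 404 CPM in S04, S05 and S07, the 3 mice with fewest gated RPE cells, and at 4.25 to 4.96 CPM in the other 6. The only such mouse in the RPE comparison is S07, a dKO mouse, and the part of sex in the results was not tested. Over all cells, 11526 (37.1%) shared later barcodes and sublibrary with another cell. Gates for fibroblast-like cells (417 cells, by collagens and related genes) and all other cells (30196) gave the classes outside the RPE. The p-values measure the spread between these mice.

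All 10 genes were higher in RPE cells than in the other cells of the same mice, which include some pigment cells described further on, in an edgeR quasi-likelihood fit with mouse as a factor (22.5% of 18029 genes tested were called higher and 48.8% in either direction). The enzymes differed by log2 fold changes of 7.21 (SE 0.35) for *Tyr*, 3.96 (SE 0.76) for *Tyrp1* and 5.24 (SE 0.62) for *Dct*, with adjusted p-values of 7.74e-08, 0.00156 and 7.5e-05. The matrix genes *Pmel* and *Mlana* differed by 4.34 (SE 0.83) and 3.82 (SE 0.75), with adjusted p-values of 0.00149 and 0.00171 by edgeR. The ion transporters differed by 6.59 (SE 0.36) for *Oca2*, 4.96 (SE 0.22) for *Slc24a5* and 3.31 (SE 0.42) for *Slc45a2*, and *Gpr143*, a receptor of the melanosome membrane, by 6.37 (SE 0.34). *Rab38* stood out from the rest, at only 0.68 (SE 0.20; edgeR adjusted p = 0.0154). Of its 144 UMIs in the RPE gate, 47 (32.6%) lay in the 75 cells with little *Rpe65*, against 28.2% for *Mlana* and 5.73% for *Tyr*. Without those cells *Rab38* stood at 7.42 CPM in the gate, in place of 8.41. With library size in place of TMM normalization, which moved the median over all genes from -0.11 to -0.40, *Rab38* differed by 0.37 and lost the call (edgeR adjusted p = 0.168), and it was also lost without S01, S02 or S06 (adjusted p from 0.0503 to 0.0555), whereas the other 9 kept theirs in each of these fits. The sizes depend on 56 cells of the other class, called pigment cells here, picked by melanocyte or ciliary markers or by *Pmel* and *Dct*. With these left out, a setting chosen after seeing the data, the log2 fold change was 6.26 for *Tyrp1*, 6.95 for *Dct*, 6.21 for *Pmel*, 5.73 for *Mlana*, 8.44 for *Tyr* and 0.80 for *Rab38*, and the 9 members that passed the filter were called higher (*Gpr143* did not pass). *Pmel* and *Dct* UMIs chose 41 of the 56 cells, so the larger folds of these genes follow at least in part from that choice. The name pigment cells is loose, since of the 12 picked by ciliary or iris markers 2 had a *Dct* UMI and 0 had *Pmel*. The count of members called is a description, since some could pass the filter through RPE alone. *Tyr*, *Dct*, *Oca2*, *Slc24a5* and *Rab38* reached its level of 0.436 CPM in the other cells of 7 of 7 mice, and the remaining 5 members in those of 3 to 6 mice.

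The share of a gene's UMIs that fell in the RPE gate differed widely among the 10. The 474 gated cells held 84.3% of all *Tyr* UMIs, 78.4% of *Oca2*, 77.4% of *Gpr143*, 54.7% of *Dct* and 53.3% of *Slc24a5*. For the rest the larger part lay outside, with 41.4% of *Pmel*, 36.5% of *Mlana*, 32.2% of *Tyrp1*, 30.6% of *Slc45a2* and 6.61% of *Rab38* in the gate. For reference, 97.1% of *Rpe65*, which helped set the gate, and 92.7% of *Ttr*, the RPE transthyretin gene, which did not, were in it.

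Whether these genes change in RPE after the deletion was asked by summing RPE UMIs per mouse. None of the 10 was called different between dKO and control RPE (edgeR, adjusted p = 0.9997 for each). The fit called 0 of 11797 genes (0%), against 2 by DESeq2 and 0 by limma-voom, and 309 genes (2.62%) had an unadjusted p under 0.05, none of them among the 10. For no member were the groups of mice apart in CPM without overlap, which held for 4.3% of all genes. Of the 10, 5 had a fold change above 0, and their median log2 fold change was -0.05, beside 0.00 over all genes. Levels here are CPM over the UMIs of RPE cells, and they are not corrected for gene length, so they serve to compare mice and cell types, not genes.

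*Tyr* (ENSMUSG00000004651, chr7:87073979-87142720) stood at 363, 240 and 318 CPM in the control mice S01, S02 and S03, and at 251, 153, 316 and 429 CPM in the dKO mice S06, S07, S08 and S09. The dKO mice spanned the whole control range, and the log2 fold change was -0.12 (SE 0.40). *Tyrp1* (ENSMUSG00000005994, chr4:80752360-80769956) stood at 22.8, 52.2 and 35.1 CPM in control mice and at 62.2, 49.1, 15.8 and 34.1 CPM in dKO mice. Both the lowest and the highest of the 7 mice were dKO, and the fold change was 0.05 (SE 0.43).

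*Dct* (ENSMUSG00000022129, chr14:118250202-118289656) showed the largest decrease in estimate of the 10. It stood at 276, 840 and 436 CPM in S01 to S03 and at 449, 245, 226 and 266 CPM in S06 to S09. Of the 4 dKO mice, 3 were below every control mouse and S06 was above 2 of the 3, with group means of 517 ± 291 (SD, n = 3) and 297 ± 103 CPM (SD, n = 4). The log2 fold change was -0.83 (SE 0.37; edgeR adjusted p = 0.9997), and the exact permutation test of the CPM gave a two-sided p of 0.229, where 3 against 4 mice can reach 0.0286. The size of the estimate depended on single mice and on few cells. It was -0.41 without S02, -1.12 without S01 and -1.31 with the top 5% of RPE cells by UMIs left out (edgeR adjusted p = 0.762). In S06, 2 cells held 575 and 495 of the 2519 *Dct* UMIs, with 2 and 3 *Rpe65* UMIs. With the 75 deep cells low in *Rpe65* left out, a setting chosen after seeing the data, *Dct* stood at 299, 1225 and 463 CPM in control mice and at 395, 345, 225 and 282 CPM in dKO mice. Then S08 and S09 lay below every control mouse, S06 and S07 lay between S01 and S03, and the fold change was -1.16 (edgeR adjusted p = 0.859). Within S02 the 2 barcoding wells, technical repeats of 1 mouse, read 525 and 1454 CPM, so they differed by more than the group means did. Over the 7 mice, the wells of a mouse differed in *Dct* by a median of 1.13 on the log2 scale, against 0.75 between mice of the same group.

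The matrix genes lay higher in dKO mice in estimate. *Pmel* (ENSMUSG00000025359, chr10:128540064-128556107) stood at 3.58, 50.8 and 12 CPM in control mice and at 28, 180, 32.5 and 10.4 CPM in dKO mice, with a log2 fold change of 1.09 (SE 1.0; edgeR adjusted p = 0.9997). S07 is the high value, from 33 UMIs, and the fold change was 0.20 without S07 and 2.36 without S02. In S08, 63 of the 70 *Pmel* UMIs came from 1 cell. *Mlana* (ENSMUSG00000024806, chr19:29674900-29686034) stood at 1.30, 6.99 and 1.87 CPM in control mice, from 4, 15 and 5 UMIs, and at 10.5, 16.4, 5.11 and 5.68 CPM in dKO mice, from 59, 3, 11 and 6 UMIs. S06 and S07 were above every control mouse and the other 2 dKO mice lay between S03 and S02. The log2 fold change of *Mlana* was 1.28 (SE 0.59; edgeR adjusted p = 0.9997), ranging from 0.89 without S01 to 2.18 without S02, and it was 0.67 with the top 5% of RPE cells by UMIs left out.

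Of the ion transporters, *Oca2*, a melanosome chloride channel (ENSMUSG00000030450, chr7:55889191-56186280), stood at 680, 586 and 551 CPM in control mice and at 340, 125, 635 and 858 CPM in dKO mice. Control mice lay close together and dKO mice on both sides of them, with a fold change of -0.29 (SE 0.59). *Slc24a5*, a cation exchanger (ENSMUSG00000035183, chr2:124909836-124930597), is the 1 gene of the 10 with the match AAAGGGA, the only seed of the deleted microRNAs searched for. It stood at 99.7, 73.7 and 80.7 CPM in control mice and at 63.3, 76.3, 86.3 and 136 CPM in dKO mice. The control mice lay within the range of the dKO mice, and the fold change of 0.07 (SE 0.35; edgeR adjusted p = 0.9997) turned to -0.30 without S09. *Slc24a5* shares 4050 bases with *Myef2* on the opposite strand, and whether the counting used strand is not given in the sources used here, so that its low counts in neurons are uncertain. The same holds for *Pmel*, which shares 900 bases with *Cdk2* and 1365 with *Dgka*, and for *Dct*, which shares 1891 bases with *4930435M08Rik*, each on the opposite strand and among the genes counted. *Slc45a2*, a melanosome transporter (ENSMUSG00000022243, chr15:11000803-11029319), stood at 17.9, 7.92 and 8.59 CPM in control mice and at 11.8, 0, 7.43 and 6.62 CPM in dKO mice, a fold change of -0.56 (SE 0.49), which was -0.05 without S01.

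*Gpr143* (ENSMUSG00000025333, chrX:151564842-151591652) stood at 36.5, 23.8 and 29.5 CPM in control mice and at 25.1, 0, 39.9 and 43.5 CPM in dKO mice. The fold change was 0.01 (SE 0.54). The counts of 0 for *Slc45a2* and *Gpr143* in S07 allow up to 16.4 CPM at its depth of 183449 RPE UMIs, so for *Slc45a2* they do not separate S07 from S02, S03, S06, S08 or S09. *Rab38* (ENSMUSG00000030559, chr7:88079466-88144036) stood at 9.78, 8.86 and 5.97 CPM in control mice and at 9.8, 5.45, 7.89 and 5.68 CPM in dKO mice, from 144 UMIs over all gated cells and 1 in S07, with a fold change of -0.11 (SE 0.31).

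**Figure D1:**
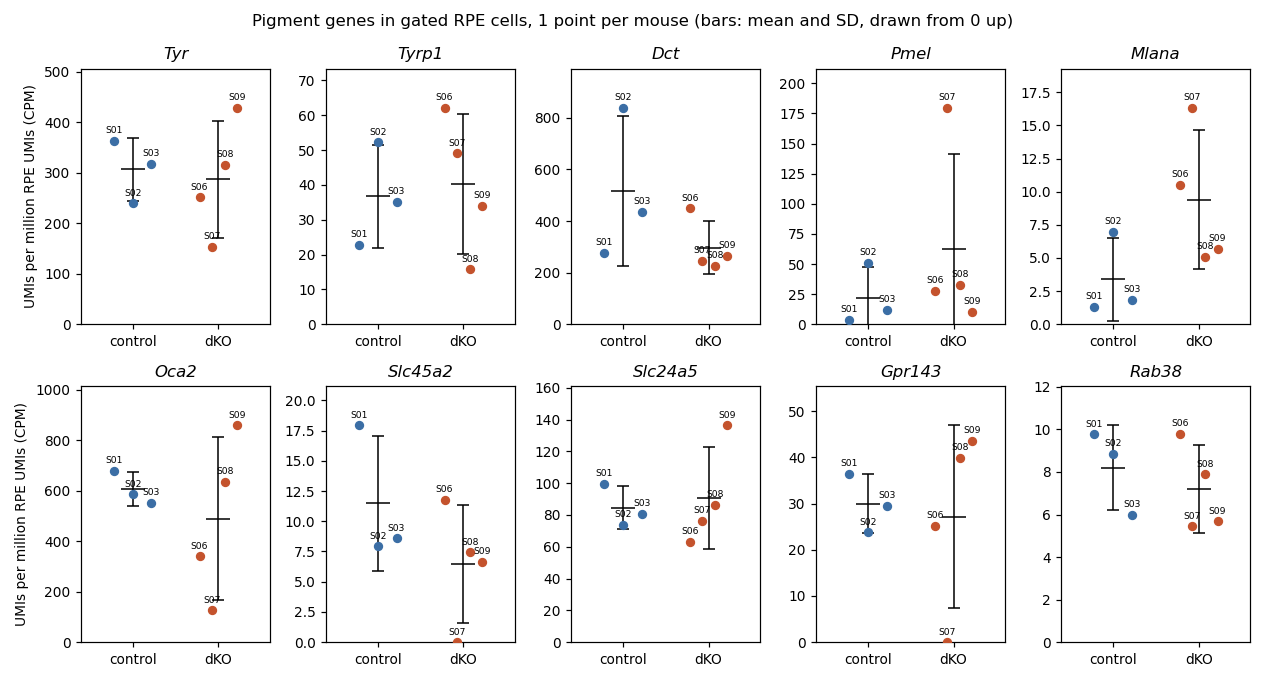
Level of each gene in gated RPE cells in CPM over RPE UMIs (linear axis from 0), 1 point per mouse, 3 control (blue) and 4 dKO (red), with the group mean and SD in black (SD bars stop at 0). The groups overlap in all 10 panels, *Dct* is highest in S02 at 840 CPM and *Pmel* is highest in S07 at 180 CPM.

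**Figure D2:**
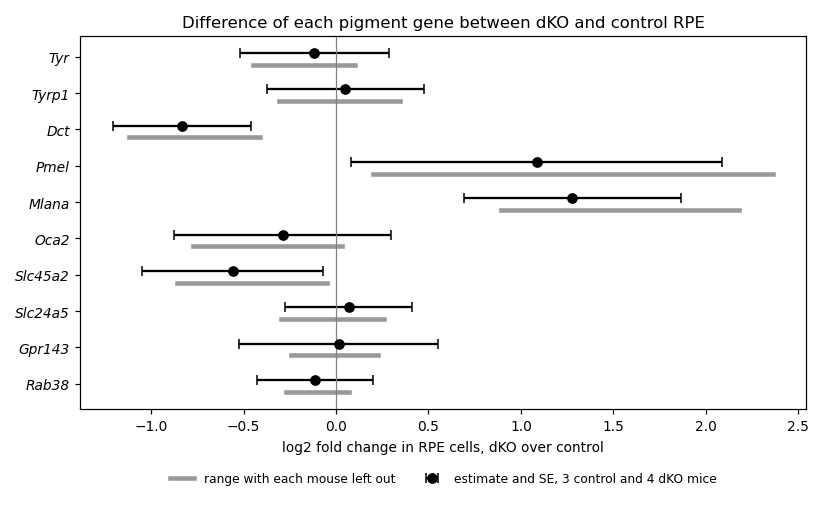
Log2 fold change of each gene in RPE cells, dKO over control, from the edgeR fit (points, with SE) and the range of the estimate with each mouse left out in turn (grey). *Dct* (-0.83), *Slc45a2* (-0.56), *Pmel* (1.09) and *Mlana* (1.28) keep their sign in each such fit, and the grey ranges of the other 6 genes cross 0.

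Taken as 1 quantity, UMIs of the 10 genes made up 0.151%, 0.189% and 0.148% of RPE UMIs in the control mice and 0.125%, 0.085%, 0.137% and 0.18% in the dKO mice. The means were 0.163% ± 0.0228 (SD, n = 3) and 0.132% ± 0.0389 (SD, n = 4), a difference of -0.0309 points that was smaller than the SD of the dKO mice. It ranged from -0.0469 to -0.0154 with mice left out in turn, and was larger than that SD, at -0.0689, with the top 5% of RPE cells by UMIs left out, a setting chosen after seeing the data, and -0.0043 with no minimum of cells. Gated RPE cells were 1.4% ± 0.92 (SD, n = 4) of the cells of control mice and 1.47% ± 1.08 (SD, n = 5) of those of dKO mice, and these were not apart by an exact permutation test (two-sided p = 0.905, where the smallest possible is 0.00794). The lowest shares were 0.0369% in S04, 0.494% in S05 and 0.425% in S07, the 3 mice with high Y-linked counts, against at least 1.43% in the other 6.

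The other genes of the pathway were read from the same fit, as a list of 43 genes for melanosome sorting complexes, transport, regulators and channels. Of these, 35 passed the filter on low counts, 0 were called in either direction, 12 had a fold change above 0, and the median was -0.19, beside 0.00 over all genes. One gene, *Kit*, the receptor for stem cell factor, had an unadjusted p under 0.05, with a log2 fold change of -1.10 (SE 0.42; edgeR adjusted p = 0.9997), the lowest of the list. This share, 1 of 35, lies near the 2.62% of all genes. *Mreg*, melanoregulin, which acts in melanosome transfer, had the largest fold change of the list, 1.08 (SE 0.48; edgeR adjusted p = 0.9997). The BLOC-1, BLOC-2, BLOC-3 and AP-3 complexes, which sort cargo to the melanosome, had medians of -0.11, -0.31, -0.20 and -0.11, the transcription factors with *Mitf* and *Otx2* had -0.23, the channels and transporters had -0.38, and the transport genes, with *Mlph* and *Myo5a*, had 0.15.

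Within the RPE gate the genes differed in how evenly cells held them. As few as 6 of 474 cells held at least 50% of the *Pmel* UMIs, and the same was reached by 8 cells for *Mlana*, 16 for *Tyrp1*, 17 for *Dct* and 18 for *Slc45a2*. It took 24 cells for *Rab38*, 29 for *Gpr143*, 36 for *Tyr*, and 40 for *Oca2* and for *Slc24a5*, beside 35 for *Rpe65*. The 20 RPE cells with most *Dct*, picked by that value, held 54% of *Dct* UMIs, 54.1% of *Pmel*, 55.3% of *Mlana*, 49.6% of *Tyrp1* and 39.5% of *Slc45a2*. They held 20.8% of *Tyr*, 18.3% of *Oca2*, 13.2% of *Rpe65* and 12% of all UMIs in the gate. Of these 20 cells, 4 were from S01, 7 from S02, 2 from S03, 6 from S06 and 1 from S08.

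Over the 314 gated cells with at least 10000 UMIs, the rank correlations of levels per cell depended on whether the 75 cells low in *Rpe65* were among them. With them, *Tyr* and *Oca2* had the highest Spearman rho, 0.71, and without them, over 239 cells, it was 0.41. The rho of *Tyr* with *Dct* went from 0.65 to 0.36 and that of *Dct* with *Oca2* from 0.64 to 0.36. The pairs *Tyrp1* with *Dct* (0.66 and 0.64) and *Tyrp1* with *Pmel* (0.60 and 0.57) moved little. *Pmel* had a rho with *Rpe65* of 0.01 and -0.06, and *Rab38* of -0.05 and 0.08, whereas *Tyr* had 0.66 and 0.41, the second over cells picked by *Rpe65* itself. These cells share mice, wells and depth, and the values are a description.

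With each of these cells thinned at random to 10000 UMIs, shares of cells with a UMI were compared between 3 control mice and the 3 dKO mice with at least 10 such cells (S06, S08 and S09). No gene could pass a test here, since 3 against 3 mice give an exact two-sided permutation p of at least 0.1. *Tyr* was detected in 76.6% ± 4.9 (SD, n = 3) of cells in control mice and 66.5% ± 7.05 (SD, n = 3) in dKO mice, *Oca2* in 82.4% ± 3.01 and 72.7% ± 9.09, *Dct* in 68.9% ± 7.77 and 56.4% ± 15, and *Slc24a5* in 50.2% ± 4.12 and 39.6% ± 6.74. In this draw the mean was higher in dKO mice for *Mlana* (3.6% and 6.03%) and *Rab38* (7.96% and 9.27%) and lower for the rest. The gate marker *Rpe65* was also lower in mean, at 85.7% ± 9.16 and 78.5% ± 8.06 of cells, and its level was 4136 ± 1741 CPM (SD, n = 3) and 2785 ± 1473 CPM (SD, n = 4), with *Ttr* at 1523 ± 418 and 1107 ± 481 CPM. Which genes had groups of mice that did not overlap depended on the draw. In the first draw it was *Slc24a5*, and in a second draw over all genes, made after seeing the data, *Slc24a5* overlapped and *Dct* and *Oca2* did not, each lower in dKO mice, beside 11.2% of 11797 genes with groups apart and 4.98% with dKO mice lower. Without the cells low in *Rpe65*, *Tyr* was apart in the first draw and *Dct* in the second, each lower in dKO mice, beside 10.4% of genes with groups apart and 5.1% with dKO mice lower. Nothing is therefore read from such a separation.

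Outside the RPE gate, cells were sorted further by markers that include none of the 10 genes, with score limits set after the data were seen. *Rab38* was highest in Müller glia among the retinal types, at 34.2 CPM over 2316 cells, against 8.41 in the RPE gate, 6.32 in cone bipolar cells, 2.37 in rod bipolar cells and 0.60 in rods. By mouse, Müller glia read 37.6, 22.9, 43 and 26.4 CPM in S01 to S04 and 30, 29.9, 45.2, 37.1 and 34.9 CPM in S05 to S09. Every one of these values lies above the highest RPE value, 9.8 CPM, and Müller glia exceeded rods in 9 of 9 mice, cone bipolar cells in 9 of 9 and RPE in 7 of 7. *Rab38* UMIs were spread over 647 Müller cells (27.9%), and it took 171 of them to hold 50% of the UMIs. *Dct* in Müller glia was of another kind, since 480 of its 550 UMIs lay in 3 cells. In Müller glia, *Rab38* was not called different between dKO and control mice (log2 fold change 0.06, SE 0.20; edgeR adjusted p = 1). This fit, made after its values were seen, called 0 of 13599 genes (0%), and 305 (2.24%) had an unadjusted p under 0.05. *Oca2*, the only other member it could test, had -1.56 (SE 0.54; edgeR adjusted p = 1) from 136 UMIs, 79 of them in 3 cells. With an unadjusted p of 0.0138 by edgeR, *Oca2* is among those 305 genes.

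Other members were low in retinal neurons. *Tyr* lay between 0.57 CPM in horizontal cells and 1.16 CPM in rod bipolar cells, and *Slc24a5* between 1.02 in horizontal cells and 3.10 in cones. *Dct* ranged more widely, from 0.64 in ganglion cells through 3.93 in rods to 7.34 in rod bipolar cells. By mouse, its level in rod bipolar cells had a median of 1.44 and a highest value of 45.7 CPM. Per 100 *Rpe65* UMIs, RPE cells had 8.31 *Tyr*, 11.8 *Dct* and 2.28 *Slc24a5* UMIs, and rods had 18.7, 65.6 and 47.9. The *Dct* value in rods rested on S06, which held 214 of its 404 UMIs, and was 39.6 without that mouse, while *Tyr* lay between 17.5 and 19.9 and *Slc24a5* between 37.7 and 54 with each mouse left out. For *Ttr* the same ratio was 37.5 in RPE and 97.4 in rods. With each mouse left out, these ratios in rods stayed above those of the RPE gate. *Rpe65* helped set that gate, so a higher ratio to it outside the gate is partly fixed by the choice of cells. What part free RNA and cells captured together had in these ratios was not tested. Over all 417 fibroblast-like cells, each of the 10 genes had between 1 UMI (*Tyrp1*, *Mlana*) and 12 UMIs (*Oca2*). A fit against the other cells of 6 mice called 6 members lower by edgeR, beside 33.7% of 17887 genes called lower, but this count supports nothing about the members. These 6 reached the level of the filter in the other cells of 6 of 6 mice and in the fibroblast-like cells of 1 to 5, so they entered the fit through the class where they were high. The call also depended on the 56 pigment cells, without which *Rab38* alone was called lower and *Pmel*, one of the genes that chose those cells, was called higher. None of the 10 passed the filter for dKO against control in fibroblast-like cells, where a fit of 7727 genes called 0 (0%) and gave 558 (7.22%) an unadjusted p under 0.05.

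**Figure D3:**
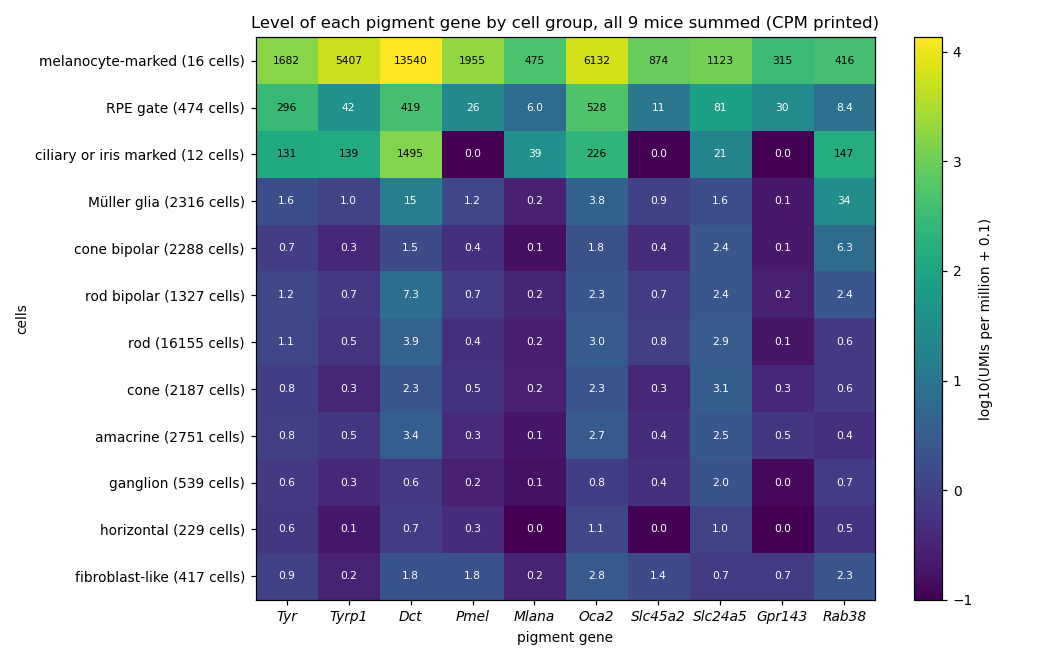
CPM (numbers) and their log10 after adding 0.1 (colour) for each gene in 12 groups of cells, summed over all 9 mice. The melanocyte-marked cells have the highest level of all 10 genes, and *Rab38* reads 34 in Müller glia against 8.4 in RPE.

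Pigment cells other than RPE were looked for as cells with *Pmel* and *Dct* UMIs and no *Rpe65* UMI. There were 41 of these among 30615 cells outside the RPE gate, and 8 more inside it. Of the 41, 28 had at least 2 UMIs of each gene, and by other markers 13 were melanocyte-marked, 17 unassigned, 5 Müller glia, 4 of 16155 rods and 2 bipolar cells, so the search also took cells with single UMIs of these genes. Control mice had 2, 1, 10 and 0 of them outside the gate and dKO mice had 3, 4, 2, 14 and 5. As shares this is 0.0493%, 0.0264%, 0.315% and 0% in S01 to S04, the 0 of 2710 cells allowing up to 0.111%, and 0.186%, 0.0996%, 0.0427%, 0.446% and 0.146% in S05 to S09. The highest shares, in S03 (exact binomial 95% interval 0.151% to 0.579%) and S08 (0.244% to 0.748%), came 1 from each group. The group means of 0.0978% ± 0.146 (SD, n = 4) and 0.184% ± 0.156 (SD, n = 5) were not apart by the exact permutation test (two-sided p = 0.46). S03 and S08 were also the mice with most fibroblast-like cells, 103 and 144, against 62 or fewer in each other mouse.

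These cells fell apart by *Ednrb*, the endothelin receptor of the melanocyte lineage. In 25 cells from 5 mice that had it, *Sox10* was found in 17, *Mitf* in 24 and *Kit* in 10, and no cell had *Mc1r*, the melanocortin receptor. Their levels in CPM were 3843 for *Tyrp1*, 1453 for *Tyr*, 3993 for *Oca2*, 689 for *Slc45a2* and 348 for *Rab38*. These too are averages over unlike cells. A single cell of S06 with 59939 UMIs, 21.3% of those of the group, had 0 *Tyr*, 1 *Tyrp1* and 2 *Dct* UMIs, and without it *Tyrp1* stood at 4879 and *Tyr* at 1846 CPM. In 16 cells from 8 mice without *Ednrb*, there was no UMI of *Sox10*, *Kit*, *Slc45a2* or *Gpr143*, each count of 0 allowing up to 11 CPM, and *Tyrp1* stood at 77, *Tyr* at 220, *Oca2* at 308 and *Rab38* at 7.33 CPM. *Mitf* was found in 2 of these 16. These levels are likewise averages, since 5 of the 16 held 531 of the 571 *Dct* UMIs and all 21 *Tyrp1* UMIs, while 8 had no *Tyr* UMI and 7 had only 1 or 2 *Dct* UMIs. The cells with *Ednrb* came 7 from S03, 11 from S08, 4 from S09, 2 from S06 and 1 from S01, and those without it came 1 to 3 from each mouse but S04. *Dct* and *Pmel* chose these cells, so their own levels are not compared. Most of these lineage markers are not particular to the 41 cells. Of the UMIs of the other class, the 41 held 14% for *Ednrb*, 1.76% for *Mitf* and 0.928% for *Kit*, but 59.2% for *Sox10*.

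**Figure D4:**
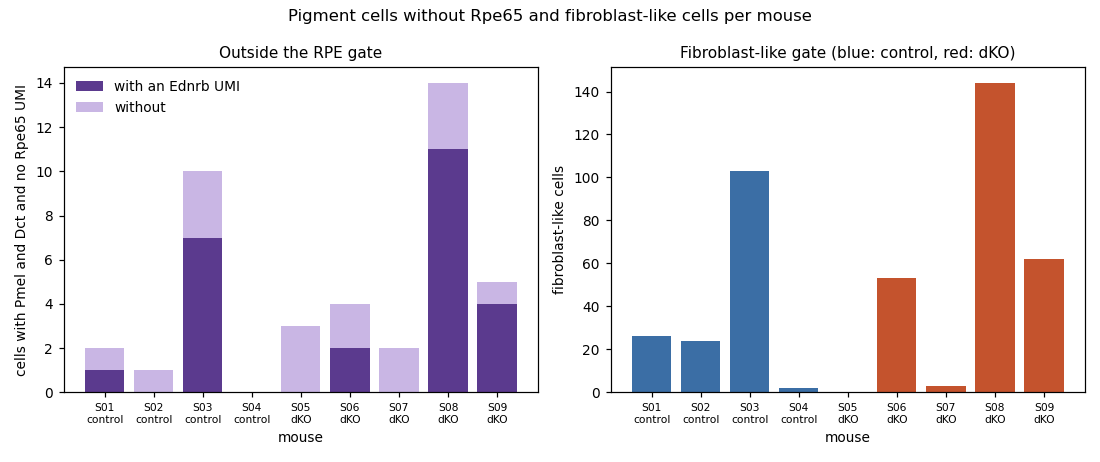
Left, number of cells outside the RPE gate with *Pmel* and *Dct* and no *Rpe65* UMI in each mouse, split by an *Ednrb* UMI. Right, number of fibroblast-like cells in each mouse. S03 (control) and S08 (dKO) have the most of both, 10 and 14 pigment cells and 103 and 144 fibroblast-like cells.

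A second search used none of the 10 genes. Cells marked as melanocytes by at least 3 of *Sox10*, *Kit*, *Ednrb*, *Mitf* and *Mc1r*, with this score above that of every other type, numbered 16, of which 13 were among the 41 above, and they came 5 from S03, 1 from S06, 6 from S08 and 4 from S09. All 10 genes were far higher in them than in RPE when pooled. The fold over RPE was 129 for *Tyrp1*, 80.8 for *Slc45a2*, 79 for *Mlana*, 74.8 for *Pmel*, 49.4 for *Rab38*, 32.3 for *Dct*, 13.8 for *Slc24a5*, 11.6 for *Oca2*, 10.5 for *Gpr143* and 5.68 for *Tyr*. In each of the 4 mice the melanocyte-marked cells were above the RPE for 9 of the 10 genes, and for *Gpr143* in 3 of 4. The exception is S06, with 0 *Gpr143* UMIs in 1 cell of 20129 UMIs. That depth is too low to order this cell against the 25.1 CPM of the RPE of S06. *Rpe65* stood at 11.9 CPM in these cells against 3560 in RPE, a contrast that the gate partly fixes, since *Rpe65* is among its markers and these cells lie outside it. With 1 to 6 cells per mouse no test was made.

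The balance of the enzymes differed between the 2 kinds of cell. Per 100 *Tyr* UMIs, a ratio in which the lengths of the genes cancel between cell types, RPE had 14.1 *Tyrp1* UMIs and the melanocyte-marked cells had 322. In RPE the ratio was 6.29, 21.8, 11, 24.8, 32.1, 5 and 7.95 in S01, S02, S03, S06, S07, S08 and S09. In melanocyte-marked cells it was 427 in S03, 171 in S06 (1 cell), 600 in S08 and 101 in S09, so the lowest of these was above the highest RPE value. For *Dct* the ratio was 142 in RPE and 805 in melanocyte-marked cells, but here the mice overlapped, since RPE of S02 read 351 and melanocyte-marked cells of S09 read 232.

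**Figure D5:**
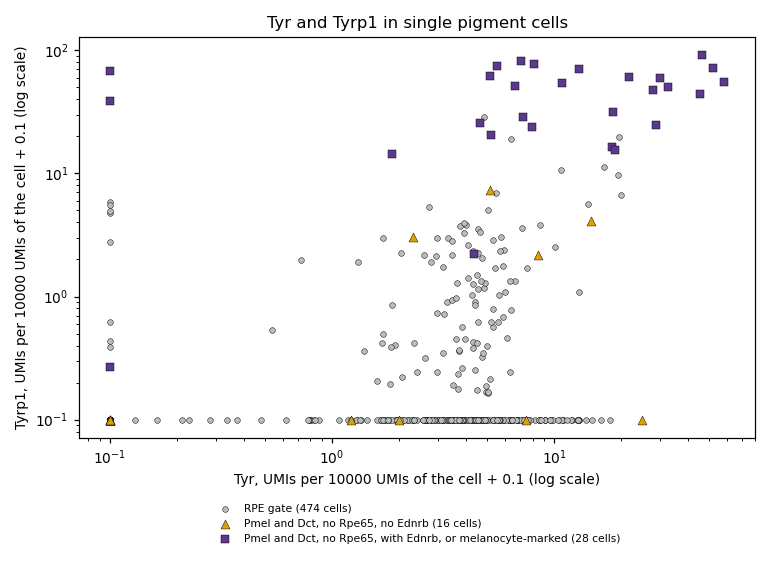
Tyr and Tyrp1 UMIs per 10000 UMIs of each cell plus 0.1 (both axes log), for 474 RPE cells (grey), 16 cells with *Pmel* and *Dct* but no *Rpe65* or *Ednrb* (yellow triangles) and 28 cells that have *Ednrb* as well or are melanocyte-marked (purple squares). Most purple squares lie above the grey points at the same *Tyr*, and the points along the lower edge are cells without a *Tyrp1* UMI.

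Markers of ciliary body or iris epithelium picked out 12 cells, none with *Rpe65*, *Pmel*, *Slc45a2* or *Gpr143* (each 0 allows up to 7.87 CPM over their 381145 UMIs). *Rab38* was found in 10 of the 12, at 147 CPM from 56 UMIs. Of their 570 *Dct* UMIs, 568 came from 1 cell, which is the whole basis of the high *Dct* level of this group. Among cells of the other class with at least 10 *Dct* UMIs, 29 had *Ednrb* and 17 did not. The 29 had 1256 *Tyrp1*, 420 *Pmel*, 205 *Slc45a2* and 50 *Sox10* UMIs to 3388 of *Dct*, and the 17 had 105, 46, 1 and 0 to 1866 of *Dct*.

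A total of 56 cells, those marked as melanocyte or ciliary epithelium and those with *Pmel* and *Dct* but no *Rpe65*, held much of what the other class had of these genes. They held 87.2% of its *Tyrp1* UMIs, 76.8% of *Pmel*, 75.3% of *Mlana*, 75.1% of *Dct*, 62.5% of *Oca2*, 61.2% of *Tyr*, 49.3% of *Slc45a2*, 45.2% of *Gpr143*, 26% of *Slc24a5* and 8.31% of *Rab38*. The shares of *Pmel* and *Dct* follow in part from how cells were picked. Without these cells *Tyrp1* went from 4.06 to 0.522 CPM and *Dct* from 16 to 4 CPM over the other class, whereas *Rab38* went from 5.46 to 5.02 CPM.

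Between dKO and control mice, none of the 10 genes was called different over all other cells (edgeR, 0 of 20339 genes called, 0%, and 206, 1.01%, with an unadjusted p under 0.05). The largest estimate was -0.62 (SE 0.93) for *Mlana*. *Tyrp1* stood at 1.15, 0.682, 14.7 and 0.404 CPM in S01 to S04 and at 0.134, 2.33, 0.17, 13.2 and 3.19 CPM in S05 to S09, a fold change of -0.17 (SE 1.31). The values were highest in S03 and S08, the mice with most pigment cells, and the fold change was 2.29 without S03. *Rab38*, which did not rest on those cells, stood at 6.7, 4.05, 6.77 and 1.52 CPM in control and at 4.09, 6.37, 2.58, 8.15 and 6.79 CPM in dKO mice, with a fold change of 0.21 (SE 0.43).

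Over 102 sums of 1 mouse and 1 type of cell (14 types), the 5 genes outside these lists whose level was most like the mean of the 10 were *Sult1c1* (Pearson r = 0.94), *E130120K24Rik* (0.93), *Tmem72*, *Ermn* and *Pon1* (0.92 each). The members themselves had an r with that mean from 0.80 for *Slc45a2* to 0.95 for *Tyr*, except *Rab38* with 0.47. Each member is part of the mean, which raises its r, so these values are not comparable with those of the 5 genes. Sums of 1 mouse share its library, and the melanocyte-marked cells were too few to enter as sums.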

How the data were processed

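The deposited matrix holds raw UMI counts per gene and cell; per the study's methods, the authors mapped reads with split-pipe to GRCm39.109, removed sparse cells and rarely seen genes, and used Seurat (4.3.0, R 4.2.2, per the submitters' processing notes) afterwards, so counts precede normalization. The text names no handling of doublets or free RNA, and neither was removed here. All 31089 cells summed to their listed total. The column named for clusters equals the barcoding well, so cells were gated by marker UMIs: RPE by *Rpe65*, *Lrat*, *Best1*, *Rdh5*, *Rrh*, *Stra6* and *Slc16a8*, fibroblast-like cells by *Col1a1*, *Col1a2*, *Col3a1*, *Dcn*, *Lum* and *Pdgfra*, with at least 3 markers and 6 UMIs. Cells in both gates (2) were left out. Other cells took the type with at least 3 of its markers detected and a score 1.25 times the next. The members and lists were chosen with earlier results of these data known.

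Counts were summed per mouse (at least 10 cells) and tested with edgeR's quasi-likelihood test (edgeR 4.0.16, TMM, filterByExpr, Benjamini-Hochberg over all genes). The SE is the log2 fold change over the square root of F. The p of *Rab38* in RPE is bounded by Poisson error within edgeR. A single value per mouse was tested by exact permutation of the mice. The named genes were all 10 members, of the wider list those with an unadjusted p under 0.05 and the largest and smallest fold change, *Rpe65* and *Ttr*, and the 5 genes most like the members' mean. The alternatives were DESeq2 (1.42.0), limma-voom (3.58.1), library size, no filter, leaving out each mouse, dropping the minimum of cells, S06 and S07 summed, stricter or *Rpe65*-free gates, a Leiden cluster (scanpy 1.11.5, without the members), cells with high rod RNA left out and thinning, and, added after seeing the data, leaving out the top 5% of RPE cells, RPE cells that share barcodes with a deeper one, deep RPE cells low in *Rpe65* (also for correlations and thinned shares) or the pigment cells of the other class, each mouse in turn for the ratios in rods, a second thinning draw, and the deepest pigment cell with *Ednrb*. Clustering used 2000 variable genes, 20 components, 20 neighbours and a resolution of 1.5. Intervals and limits (3 counts for a 0) cover counting error only. Gene positions and UTRs are from GENCODE M39 on GRCm39. The edgeR test was checked on simulated counts.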

Additional observations from a re-analysis of the deposited data

Results flagged for a closer look

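In groups of 4 or 5 mice, a value was singled out when its gap to the nearest other mouse took up most of the range of its group (Dixon's criterion at the 95% level). The rate of about 1 in 20 groups by chance holds for independent, normally distributed values, and the genes here share mice and cells. That rate is therefore not compared with the 10 of the 37 groups of values checked that had such a value. In RPE cells it was *Pmel* in the dKO mouse S07, at 180 CPM against 10.4 to 32.5 in the other 3.

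In other cells, 5 genes were singled out in the control mouse S03, and they share its cells. They are *Tyrp1* (14.7 CPM against 0.404 to 1.15 in the other control mice), *Dct* (54.8 against 1.03 to 8.24), *Pmel* (5.26 against 0.179 to 0.945), *Mlana* (1.86 against 0.0802 to 0.288) and *Oca2* (19.7 against 1.88 to 4.42). The share of cells with *Pmel* and *Dct* and without *Rpe65* was singled out in the same mouse (0.315% against 0% to 0.0493%). In dKO mice, *Tyrp1* (13.2 CPM against 0.134 to 3.19) and *Pmel* (4.51 against 0.358 to 1.30) were singled out in S08. S03 and S08 also had the most fibroblast-like cells, 103 and 144, and the part of tissue adhering to the retina in these values was not tested.

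The share of cells in the RPE gate was low in the control mouse S04, at 0.0369% (1 cell) against 1.72% to 2.04% in the other control mice. S04 was also the only control mouse with high Y-linked counts, at 424 CPM, and the part of sex in this share was not tested.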

How the results depend on the processing

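No paired analysis was possible because control and dKO mice share no replicate number. No member was called for dKO against control under any alternative in RPE or other cells, and none of the wider list in RPE; thinning to the smallest total left 4 members to test. In RPE cells, *Tyr* turned from -0.12 to 0.12 in the RPE cluster, 0.10 with S06 and S07 summed, 0.003 without cells high in rod RNA, 0.0157 with no minimum of cells, 0.0032 without deep cells low in *Rpe65* and 0.17 in the stricter gate. *Tyrp1* turned to -0.0535 with limma-voom, -0.17 without deep cells low in *Rpe65* and -0.35 without the top 5% of cells by UMIs, both chosen after seeing the data. *Oca2* turned to 0.0246 with S06 and S07 summed and 0.0743 in the stricter gate, and *Slc24a5* to -0.10 without the top 5% of cells. *Gpr143* turned to -0.032 with DESeq2, -0.10 with limma-voom, -0.0078 without a filter, -0.0608 with no minimum of cells and -0.11 without the top 5%. *Rab38* turned to 0.0697 in the gate without *Rpe65*, 0.23 without cells high in rod RNA and 0.0408 without the top 5%. With mice left out in turn, the ranges were -0.45 to 0.10 for *Tyr*, -0.31 to 0.35 for *Tyrp1*, -0.78 to 0.0298 for *Oca2*, -0.30 to 0.26 for *Slc24a5*, -0.24 to 0.23 for *Gpr143* and -0.27 to 0.0707 for *Rab38*. *Dct* stayed below 0 in each fit run, from -1.12 (without S01, unadjusted p 0.0173) to -0.41 (without S02, 0.273) with mice left out and from -1.31 (top 5% left out, 0.00843) to -0.63 (no minimum of cells, 0.412) over the other settings, and *Pmel* ranged from 0.20 to 2.36 with mice left out.

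In other cells the same ranges were -0.51 to 1.12 (*Tyr*), -1.52 to 2.29 (*Tyrp1*), -1.38 to 1.39 (*Dct*), -0.74 to 1.75 (*Pmel*), -1.20 to 1.16 (*Mlana*), -0.81 to 0.84 (*Oca2*), -0.51 to 0.83 (*Slc45a2*), -0.39 to 0.18 (*Slc24a5*), -0.50 to 1.09 (*Gpr143*) and -0.0499 to 0.42 (*Rab38*). With pigment-marked cells left out, also chosen after seeing the data, *Dct* was 0.25, *Pmel* -0.0495 and *Slc45a2* -0.17. In fibroblast-like against other cells, *Pmel* ranged from -1.30 to 0.61 and *Slc45a2* from -0.77 to 0.55. With the pigment cells left out of the other class, 2 members were called in place of 6, and *Pmel* was 2.22, *Oca2* 0.35 and *Slc45a2* 1.46. The RPE share difference of 0.068 points turned to -0.0126 with S06 and S07 summed and -0.101 in the stricter gate, and ranged from -0.387 to 0.329 with mice left out. The difference in summed members, -0.0309 points, was -0.0689 without the top 5% of cells. The cause was not tested. Depth limits S07 most, with 183449 RPE UMIs.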
